A study of Mus musculus with 64 samples.

Results

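Arcuate melanocortin and feeding peptide genes in mouse hypothalamus and prefrontal cortex (PFC) after psilocybin were taken as 8 genes: Pomc, Agrp, Npy, Cartpt, Mc3r, Mc4r, Pcsk1 and Pcsk2. They were found by matching the Ensembl gene ID of each row of the count table, without its version, to the gene symbol, which gave 8 of 55401 rows. All 8 were among the 18971 genes that passed the filter on low counts. None of the 8 passed the test for psilocybin against saline in either region at either time. All 8 differed between the regions, as did 76.2% of all genes tested, and 1 of them, Mc4r, was higher at 3 h than at 4 weeks in the PFC of psilocybin-treated mice, where 5.96% of all genes were called. The expression of Agrp, Npy and Pomc rose and fell together from one hypothalamus library to the next.

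The arcuate nucleus at the base of the hypothalamus holds a pair of neuron types with opposite actions on feeding. POMC neurons release α-MSH, which is cut from the POMC precursor and activates the melanocortin receptors MC3R and MC4R, and most also make the peptide encoded by Cartpt. AgRP neurons release AgRP, an inverse agonist of these receptors, together with neuropeptide Y (NPY), and drive feeding. The prohormone convertases PC1/3 (Pcsk1) and PC2 (Pcsk2) cut POMC and many other neuropeptide precursors, and loss of MC4R causes obesity in mice and in people. In the cortex NPY is made by GABAergic interneurons.

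The samples were 64 RNA-seq libraries from 32 chow-fed male C57BL/6J mice, 10 weeks old and housed in groups. Each mouse received a single intraperitoneal injection of psilocybin, a serotonergic psychedelic, at 3 mg/kg or of isotonic saline, and was killed 3 h or 4 weeks later. The whole hypothalamus and the PFC, which the sample labels call frontal cortex, were taken from each mouse, so that region, treatment and time made 8 groups of 8 libraries. Mice of the different groups that share a replicate number came from the same numbered cage. No mouse carried a transgene or a mutation, and every mouse was injected, so no group was left untreated.

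There were 62 libraries with at least 1000000 counted reads, and their totals ran from 8061033 to 70361839 reads with a median of 18287978.5. The other 2 were left out (hypothalamus at 3 h, saline replicate 2, and PFC at 4 weeks, psilocybin replicate 3), so those groups held 7. Region markers followed the labels: the summed level of Oxt, Avp, Sim1 and Crh was 145 to 2333 counts per 1000000 counted reads (CPM) in the hypothalamus and 4.35 to 15.5 CPM in the PFC, and 10 markers of cortical layer neurons summed to 206 to 328 CPM and 1517 to 2148 CPM. One library stood apart, psilocybin replicate 5 of the hypothalamus at 4 weeks. Its level of Oxt, the oxytocin gene, was 1201 CPM against 67.7 to 248.9 CPM in the other 30 hypothalamus libraries. Short transcripts were high in it and long transcripts low: genes of up to 1000 bases lay at a median of 0.99 on the log2 scale above the other libraries, and genes over 8000 bases at −0.90. Values without it are given beside many of the results below. In the PFC, psilocybin replicate 7 at 3 h had the highest summed level of microglia and blood markers, 1308 CPM against a region median of 725 CPM.

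Of the 8 genes, 6 had an entry in the RefSeq table of sequences upstream of gene starts (GRCm38.p6). Agrp and Mc4r had none. The 250 bases before the start are shown for Pomc, Npy and Cartpt, 3 peptide genes whose levels differed between the regions in opposite directions, in the 5′ to 3′ direction of the gene. The Pomc stretch is chr12:3954695-3954944 on the plus strand, the Npy stretch chr6:49822460-49822709 on the plus strand and the Cartpt stretch chr13:99900684-99900933 on the minus strand. Capitals mark matches, on either strand, to 3 motifs that were searched: the TATA box TATAAA, the cAMP response element TGACGTCA and the GC box GGGCGG.
Pomc: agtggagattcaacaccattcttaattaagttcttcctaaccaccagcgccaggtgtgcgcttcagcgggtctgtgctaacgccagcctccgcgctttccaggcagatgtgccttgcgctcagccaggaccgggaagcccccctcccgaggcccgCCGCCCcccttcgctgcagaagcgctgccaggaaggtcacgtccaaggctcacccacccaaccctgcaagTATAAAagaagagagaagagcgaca
Npy: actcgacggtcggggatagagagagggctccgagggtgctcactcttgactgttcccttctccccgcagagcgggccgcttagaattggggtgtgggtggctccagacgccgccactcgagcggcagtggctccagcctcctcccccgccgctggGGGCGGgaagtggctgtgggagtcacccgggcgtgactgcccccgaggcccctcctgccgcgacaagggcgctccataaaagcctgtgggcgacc
Cartpt: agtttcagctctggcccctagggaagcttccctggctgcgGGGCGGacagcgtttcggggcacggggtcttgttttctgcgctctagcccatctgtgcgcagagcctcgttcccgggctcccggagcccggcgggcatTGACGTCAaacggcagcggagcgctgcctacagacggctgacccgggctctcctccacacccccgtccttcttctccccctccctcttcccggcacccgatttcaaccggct
TATAAA was found in Pomc alone among the 6, from −25 to −20 counted back from the start of the RefSeq transcript, and 12.4% of 32851 windows of the same length in the table held it. The full TGACGTCA was found in Cartpt, from −112 to −105, and in Pcsk1, from −78 to −71, and 1.55% of all windows held it. GGGCGG, present in 32.7% of all windows, matched in Pomc and Npy from −95 to −90, in Cartpt from −210 to −205 and at 7 positions in Pcsk2, some of them overlapping. Mc3r matched none of the 3. These matches describe the letters in the windows and were not tested as binding sites.

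In the hypothalamus the peptide genes were ordered, by counted reads scaled to exon length and library total (RPKM), as Cartpt, Npy, Pomc and Agrp. Cartpt (ENSMUSG00000021647.7, chr13:99898489-99900641, minus strand, GRCm38) had 45.0 ± 27.4 RPKM (SD, n = 31). Npy (ENSMUSG00000029819.6, chr6:49822710-49829507, plus strand) had 33.3 ± 15.2 RPKM and Pomc (ENSMUSG00000020660.6, chr12:3954951-3960573, plus strand) 28.1 ± 17.6 RPKM over the same libraries. Agrp (ENSMUSG00000005705.10, chr8:105566698-105637393, minus strand) had 6.56 ± 4.60 RPKM. The SDs of Cartpt, Npy and Pomc were wider than the steps between them, so their order does not exceed their spread. The annotated span of Agrp overlaps 2 gene models on its own strand, Gm5914 and Gm45855, so its count is uncertain where reads could fall to either.

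The receptors were the lowest of the 8 and the convertases lay near the peptides. Mc3r (ENSMUSG00000038537.1, chr2:172248492-172251114, plus strand) had 2.16 ± 0.419 RPKM in the hypothalamus (SD, n = 31). Mc4r (ENSMUSG00000047259.3, chr18:66857704-66860506, minus strand) had 1.14 ± 0.283 RPKM. Pcsk2 (ENSMUSG00000027419.9, chr2:143546156-143816285, plus strand) had 33.5 ± 3.77 RPKM, and Pcsk1 (ENSMUSG00000021587.5, chr13:75089826-75134861, plus strand) had 14.1 ± 2.08 RPKM. In the PFC the order was led by Npy with 150.5 ± 30.7 RPKM and Pcsk2 with 71.1 ± 8.84 RPKM, followed by Pcsk1 with 10.4 ± 2.86 RPKM. The other 5 genes were low there, from 2.33 ± 1.47 RPKM for Cartpt to 0.0498 ± 0.0554 RPKM for Mc3r.

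**Figure D1:**
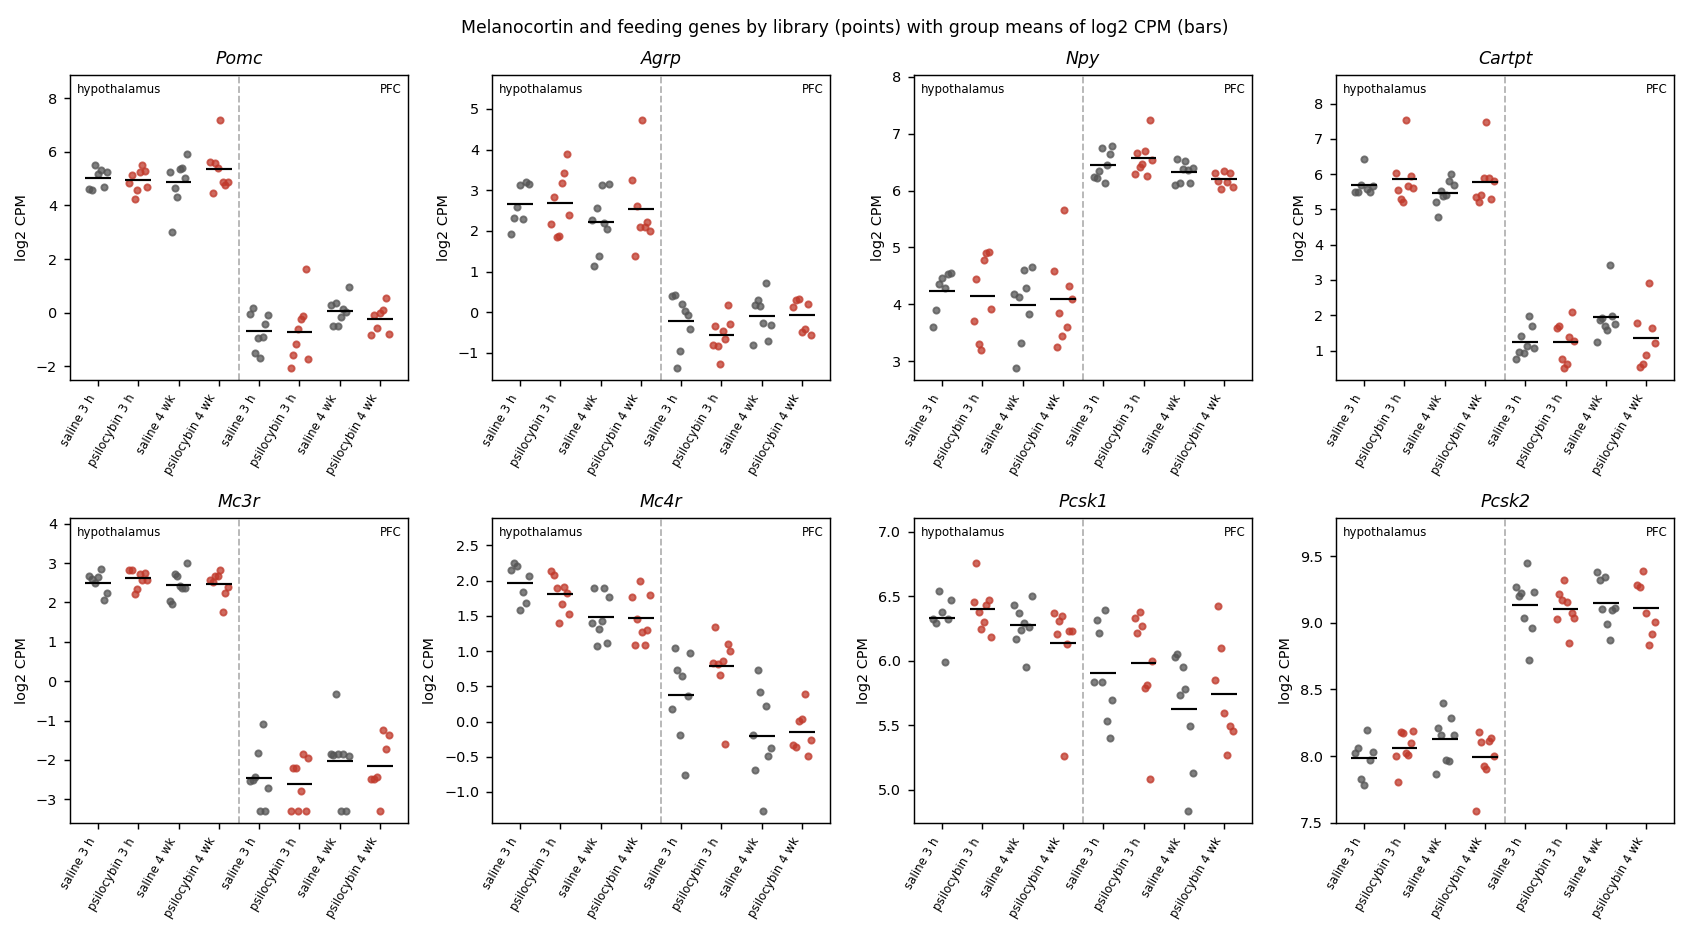
Level of the 8 genes in each of the 62 libraries, as log2 CPM with a prior count of 2 (vertical axis), by group of region, treatment and time (horizontal axis). Points are libraries, saline in grey and psilocybin in red, and bars are group means of log2 CPM. Pomc, Agrp, Cartpt and Mc3r sit far higher in the hypothalamus, Npy and Pcsk2 sit higher in the PFC, and the treatments overlap in every panel.

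The comparison of regions asked where each gene is expressed. All 8 genes differed, in a table where 76.2% of the genes tested were called, 36.5% higher in the hypothalamus and 39.6% lower (edgeR's quasi-likelihood test, Benjamini-Hochberg adjusted over 18971 genes). The hypothalamus libraries were extracted in pools A and B and the PFC libraries in pools C and D, so region and extraction pool cannot be told apart. In 6 of the 8 genes no library of one region reached the other, which was so in 11.3% of all genes tested, and the exceptions were Mc4r and Pcsk1. Each difference below is the hypothalamus minus PFC on the log2 scale, with its SE.

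Pomc had 37.1 CPM in the hypothalamus (lowest 8.03, median 35.5, highest 147) and 0.785 CPM in the PFC (0.140 to 3.00). Its difference was 5.54 ± 0.20 (edgeR adjusted p = 1.43e-32). Cartpt had 57.4 CPM in the hypothalamus (lowest 27.5, median 47.5, highest 186) and 2.97 CPM in the PFC (1.33 to 10.7), a difference of 4.31 ± 0.16 (edgeR adjusted p = 2.31e-31). A PFC library held 2 to 82 reads of Pomc and 17 to 260 reads of Cartpt. Agrp, the marker of AgRP neurons, had 6.65 CPM (lowest 2.09, median 4.92, highest 26.6) against 0.799 CPM in the PFC (0.288 to 1.54), a difference of 2.97 ± 0.17 (edgeR adjusted p = 1.41e-23).

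Npy ran the other way from its partner Agrp. It had 18.8 CPM in the hypothalamus (lowest 7.30, median 18.1, highest 50.2) and 85.2 CPM in the PFC (lowest 64.9, median 81.4, highest 152), a difference of −2.22 ± 0.10 (edgeR adjusted p = 1.87e-27). The lowest PFC library was above the highest hypothalamus library. In a whole-tissue library fewer cells of a type and less RNA per cell cannot be told apart, here and in every comparison below.

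Both receptors were higher in the hypothalamus. Mc3r had 5.67 CPM there (lowest 3.28, median 5.84, highest 7.91) and 0.131 CPM in the PFC, where 8 libraries held 0 reads of it and the highest held 49, a difference of 5.34 ± 0.20 (edgeR adjusted p = 3.05e-33). Mc4r had 3.18 CPM (lowest 2.01, median 3.30, highest 4.66) against 1.18 CPM in the PFC (lowest 0.313, median 1.07, highest 2.42), a difference of 1.50 ± 0.11 (edgeR adjusted p = 1.76e-18). Of the convertases, Pcsk1 was higher in the hypothalamus by 0.46 ± 0.064 (edgeR adjusted p = 4.33e-09), with 38.3 to 108 CPM there and 28.5 to 85.7 CPM in the PFC. Pcsk2 was lower in the hypothalamus, with 192 to 338 CPM against 421 to 698 CPM and a difference of −1.09 ± 0.041 (edgeR adjusted p = 9.90e-33).

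The genes around the pathway are counted in the same comparison, where the median over all genes tested was −0.02, 36.5% of all genes were higher in the hypothalamus and 39.6% lower. Lists whose shares lie near these are given as a description only. Of 7 tested accessory proteins and further melanocortin receptors, 2 were higher in the hypothalamus and 3 lower, with Mrap2, an MC4R accessory protein, at 2.79, the related Mrap at −2.03, at under 1 CPM in both regions, and Mc5r at −0.73. Of 4 tested NPY receptors 2 were higher and 1 lower, with Npy2r at 2.71 and Npy1r at −0.97. Of 14 prohormone processing and vesicle genes 6 were higher and 5 lower, with Scg2 at 1.80 and Chgb at −0.83. Of 11 arcuate transcription factors 8 were higher and 2 lower, led by Otp at 7.82 and Nkx2-1 at 6.20. Of 12 other arcuate peptide and enzyme genes 11 were higher, with Gal at 6.78, and only Sst was lower, at −0.27. Of 13 leptin and insulin signalling genes 7 were higher and 4 lower, with the ghrelin receptor gene Ghsr at 5.87 and the leptin receptor gene Lepr at −1.07. Of 8 genes of the paraventricular neurons downstream of melanocortin signalling 6 were higher, led by Oxt at 8.88 and the transcription factor gene Sim1 at 8.54, and 2 were lower, Bdnf at −1.11 and Crh at −0.66.

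The comparison of psilocybin with saline in the hypothalamus at 3 h asked whether the drug acutely changed the feeding circuit's transcripts. None of the 8 genes was called, and 0% of all genes tested were called, with 337 of 18971 at an unadjusted p under 0.05. Pomc had 31.8 ± 8.98 CPM after psilocybin (SD, n = 8; lowest 18.7, median 32.1, highest 45.0) and 33.4 ± 8.79 CPM after saline (n = 7; lowest 23.6, median 36.0, highest 45.6). The groups covered almost the same range. The log2 difference was −0.07, with a 95% interval from −0.64 to 0.51. Agrp had 7.23 ± 3.95 CPM (lowest 3.53, median 6.10, highest 14.6) and 6.57 ± 2.26 CPM (lowest 3.70, median 5.91, highest 9.17), a difference of 0.14 (−0.46 to 0.74). Npy had 19.5 ± 8.93 and 19.3 ± 4.32 CPM, a difference of 0.01 (−0.41 to 0.43).

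Cartpt had the largest of the 8 estimates at this time, 0.33 on the log2 scale (−0.21 to 0.86), with 67.0 ± 49.2 CPM after psilocybin and 52.9 ± 14.9 CPM after saline. In each group replicate 5 was the highest library, at 186 CPM against 37.0 to 65.2 CPM in the other 7 and at 86.3 CPM against 44.9 to 51.2 CPM in the other 6. The remaining libraries of the groups overlapped. The estimate was −0.0086 without psilocybin replicate 5 and 0.42 without saline replicate 5, so its size rests on these libraries. Mc3r had 6.06 ± 0.921 and 5.66 ± 1.04 CPM, a difference of 0.10 (−0.46 to 0.66), and Mc4r had 3.44 ± 0.618 and 3.87 ± 0.706 CPM, a difference of −0.18 (−0.61 to 0.25). The convertases had the narrowest intervals. The interval for Pcsk1 ran from −0.20 to 0.32 and that for Pcsk2 from −0.09 to 0.24. The edgeR adjusted p was 1 for each of the 8 genes.

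At 4 weeks in the hypothalamus, a comparison that asked for lasting changes, again none of the 8 genes was called and 0% of all genes tested were, with 1823 at an unadjusted p under 0.05. The median log2 difference of the 8 genes was 0.10, against 0.01 over all genes tested. Pomc had 49.3 ± 40.9 CPM after psilocybin (n = 8; lowest 21.9, median 35.8, highest 147) and 33.4 ± 16.0 CPM after saline (n = 8; lowest 8.03, median 35.1, highest 60.4). The medians nearly coincided, and the highest psilocybin library was replicate 5. Its difference was 0.59 ± 0.28 (SE; 95% interval 0.03 to 1.15, edgeR adjusted p = 0.489), and 0.15 without that library. Agrp had 7.65 ± 7.91 CPM (lowest 2.51, median 4.36, highest 26.6) and 5.13 ± 2.52 CPM (lowest 2.09, median 4.60, highest 8.78). Its difference was 0.57 ± 0.29 (edgeR adjusted p = 0.541), and 0.06 without replicate 5.

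The estimates of the other peptide genes also depended on that library. Npy had 19.7 ± 13.2 and 16.9 ± 6.28 CPM, a difference of 0.19 (−0.21 to 0.60), which turned to −0.11 without replicate 5. Cartpt had 63.6 ± 46.5 and 45.7 ± 11.3 CPM, a difference of 0.44 (−0.08 to 0.96) and of 0.12 without it. The receptors had close group means, with 5.50 ± 1.14 and 5.47 ± 1.36 CPM for Mc3r (0.01, interval −0.54 to 0.55) and 2.74 ± 0.690 and 2.77 ± 0.661 CPM for Mc4r (−0.02, interval −0.45 to 0.40). Pcsk1 was at 38.3 CPM in replicate 5, below the 61.8 to 108 CPM of every other hypothalamus library, and its difference of −0.13 (−0.38 to 0.12) became −0.03 without it. Pcsk2 had a difference of −0.13 (−0.29 to 0.03). In the fit with voom quality weights, which gave replicate 5 a weight of 0.0276, the 4-week differences of Pomc, Agrp and Npy were −0.014, −0.39 and −0.26.

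**Figure D2:**
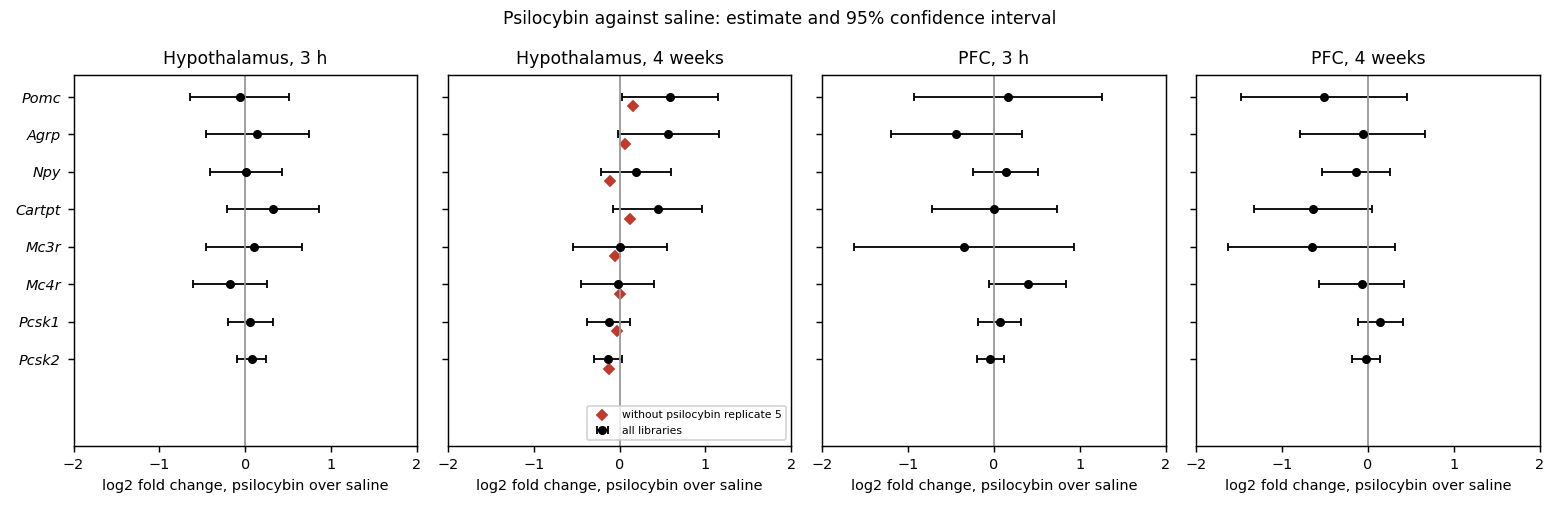
Log2 difference of psilocybin minus saline (horizontal axis) for each gene (vertical axis) in the hypothalamus and PFC at 3 h and 4 weeks; points are edgeR estimates, lines 95% intervals, and red diamonds the 4-week hypothalamus estimates without psilocybin replicate 5. All intervals cross 0 except that of Pomc in the hypothalamus at 4 weeks (0.03 to 1.15), whose estimate falls from 0.59 to 0.15 without that library.

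In the PFC the 5 genes with a mean of at least 1 CPM were Npy, Cartpt, Mc4r, Pcsk1 and Pcsk2. At 3 h 0.0105% of all genes tested were called, and none of the 8. This share depends on the fit. With voom quality weights and the animal as a block, the kind of model used in the study, 6.49% of all genes tested were called. Npy had 97.1 ± 24.1 CPM after psilocybin (n = 8; lowest 76.0, median 90.6, highest 152) and 88.0 ± 15.6 CPM after saline (n = 8; lowest 69.8, median 84.5, highest 110.0). The highest was replicate 7, and the difference of 0.14 (SE 0.19) was 0.03 without it. Mc4r had the largest of these estimates, 1.70 ± 0.496 CPM (lowest 0.703, median 1.70, highest 2.42) and 1.29 ± 0.516 CPM (lowest 0.491, median 1.32, highest 1.97). The groups overlapped, and the difference of 0.40 ± 0.23 was not called (edgeR adjusted p = 0.748). Cartpt, Pcsk1 and Pcsk2 differed by 0.01, 0.07 and −0.04, and the Pcsk1 difference was 0.15 without psilocybin replicate 7 and 0.21 without saline replicate 5.

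At 4 weeks in the PFC 0% of all genes tested were called, and none of the 8. Cartpt had 2.92 CPM on average after psilocybin (n = 7; lowest 1.36, median 2.20, highest 7.42) and 4.18 CPM after saline (n = 8; lowest 2.25, median 3.42, highest 10.7). Replicate 6 was the highest library of each group, and saline replicate 6 was also the PFC library with the highest summed level of 10 striatal markers, 2217 CPM against a region median of 327 CPM. Psilocybin replicate 6 was likewise the highest of its group for that list, at 1011 CPM. The part of those cells in the Cartpt level was not tested. The difference was −0.64 ± 0.34 (edgeR adjusted p = 1), −0.32 without saline replicate 6 and −0.96 without psilocybin replicate 6. Npy had 73.7 ± 6.59 and 80.4 ± 9.95 CPM, a difference of −0.14 (SE 0.20). Mc4r, Pcsk1 and Pcsk2 differed by −0.07, 0.14 and −0.03. The change of the psilocybin effect between 3 h and 4 weeks was called for none of the 8 genes and for 0% of all genes in the hypothalamus (999 at an unadjusted p under 0.05) and in the PFC (585).

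No gene of the 7 pathway lists was called for psilocybin in either region at either time. Those with the smallest p in the hypothalamus at 3 h were Npy4r, Dlx1, Crh, Htr1b, Mc5r, Tac2 and Vgf, 1 for each list. At 4 weeks they were Npy4r, Prdm12, Oxt, Socs3, Sdc3, Sst and Pcsk1n. The largest of these estimates was 1.00 for Pcsk1n, which encodes the PC1/3 inhibitor proSAAS (edgeR adjusted p = 0.448), and it was 0.26 without psilocybin replicate 5. Oxt was at 0.94 (edgeR adjusted p = 0.473), and at 0.21 without that library. Socs3, an inhibitor of leptin signalling, was at 0.76 (edgeR adjusted p = 0.448), and at 0.81 without it (edgeR adjusted p = 1).

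Harvest at 3 h and at 4 weeks differed in the age of the mice as well as in the time since injection, and these cannot be told apart. For the 3 h minus 4 weeks difference in psilocybin-treated mice in the PFC, 5.96% of all genes tested were called, with 2.7% of those tested higher at 3 h, and 1 of the 8 genes, Mc4r. It had 1.70 ± 0.496 CPM at 3 h (n = 8; lowest 0.703, median 1.70, highest 2.42) and 0.820 ± 0.207 CPM at 4 weeks (n = 7; lowest 0.607, median 0.732, highest 1.21). Of the 3 h libraries 7 lay above every 4-week library, and replicate 6 at 0.703 CPM lay among them. The difference was 1.02 ± 0.24 (95% interval 0.54 to 1.51, edgeR adjusted p = 0.00529). The counts behind it were small, at most 48 reads a library at 3 h and 23 at 4 weeks.

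The call held when any 1 library was left out (0.96 to 1.14) and was lost within either pair of extraction pools, where it was 1.21 in pool C (edgeR adjusted p = 0.0811) and 0.91 in pool D (edgeR adjusted p = 0.157). In saline-treated mice the Mc4r difference was 0.56 ± 0.23 (edgeR adjusted p = 0.170), from 1.29 ± 0.516 CPM at 3 h to 0.843 ± 0.413 CPM at 4 weeks. The difference between the treatments was 0.47 ± 0.33 (edgeR adjusted p = 1), so the change with time was not shown to differ between psilocybin and saline. In the hypothalamus the Mc4r difference was 0.48 after saline (edgeR adjusted p = 0.516) and 0.33 after psilocybin (edgeR adjusted p = 0.414). The saline value was called in the fit with voom quality weights (0.52, limma adjusted p = 0.0124). Of the related receptors, Mc5r was called in the PFC of psilocybin-treated mice, higher at 3 h by 1.19 (edgeR adjusted p = 0.000703).

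**Figure D3:**
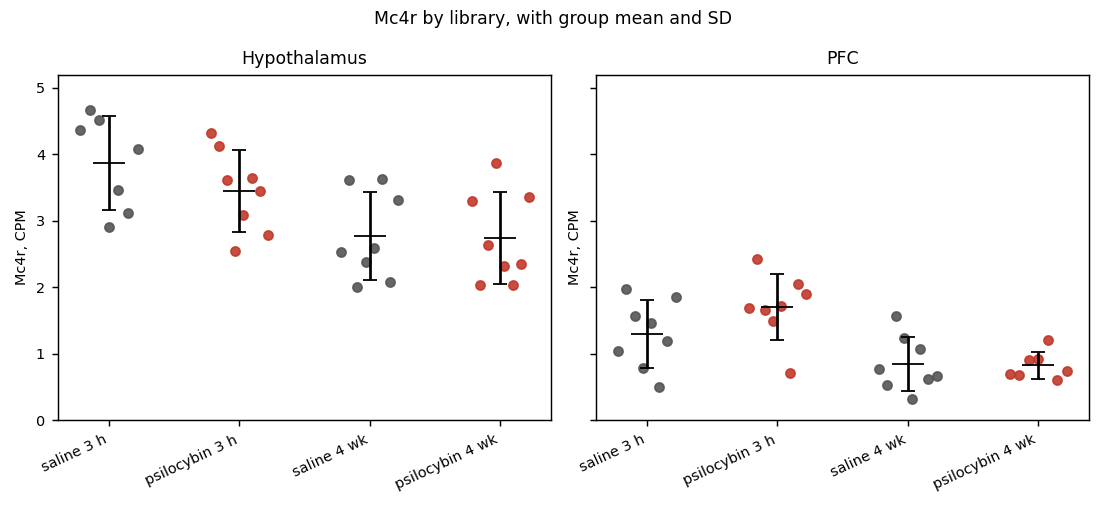
Mc4r level in CPM (vertical axis) in each library of the 8 groups (horizontal axis), with the mean and SD of each group. In the PFC after psilocybin 7 of the 8 libraries at 3 h lie above all 7 at 4 weeks, and saline libraries at 3 h (0.491 to 1.97) and 4 weeks (0.313 to 1.56) overlap.

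None of the 8 genes was called between times in the hypothalamus after saline (0.685% of all genes called) or after psilocybin (1.16%), or in the PFC after saline (4.72%). In the hypothalamus after psilocybin the Pomc difference was −0.63 ± 0.28 (edgeR adjusted p = 0.231), and −0.22 without replicate 5 at 4 weeks. That of Agrp was −0.12, and 0.40 without that library, and the fit with voom quality weights called it (0.75, limma adjusted p = 0.0309). In the PFC after saline the Cartpt difference was −0.81 ± 0.34 (edgeR adjusted p = 0.169), and when cage entered the model and extraction pool did not, it was called (−0.80, edgeR adjusted p = 0.0495). Without saline replicate 6 at 4 weeks the difference was −0.51 (edgeR adjusted p = 0.470). That of Mc3r, at 0 to 49 reads a library, was −1.26 ± 0.50 (edgeR adjusted p = 0.143), and −1.83 without saline replicate 6 at 3 h, which was called (edgeR adjusted p = 0.0282). Saline replicate 3 at 4 weeks, the deepest library with 70361839 reads, held the 49 reads, and without it the Mc3r difference was −0.30 (edgeR adjusted p = 0.819). In the same comparison 3 of 11 arcuate transcription factors, 3 of 12 other arcuate genes, 2 of 8 paraventricular genes and 1 of 6 mammillary markers were called lower at 3 h, and 0 of 5 ventromedial, 0 of 4 lateral hypothalamus and 0 of 5 suprachiasmatic markers. Among those called were Otp at −2.86, Isl1 at −3.17, Nkx2-1 at −2.24, Gal at −2.31, Trh at −1.60 and Gpr101 at −2.16. Saline replicate 3 at 4 weeks also had the highest summed paraventricular and supraoptic list of all PFC libraries, 15.5 CPM. Without it Isl1 stayed called at −2.78 (edgeR adjusted p = 0.0289), while Otp at −1.06, Nkx2-1 at −1.35, Trh at −0.62 and Gpr101 at −1.11 were not called (edgeR adjusted p = 0.478, 0.224, 0.540 and 0.103), and Gal turned to 0.89 (edgeR adjusted p = 0.580). Cartpt was at −0.77 without that library (edgeR adjusted p = 0.236). The mammillary marker that was called, Foxb1, was at −2.20 without it and was not called (edgeR adjusted p = 0.149). The part of hypothalamic tissue in the values of Cartpt and Mc3r was not tested.

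Higher at 3 h in the PFC were Irs2, an insulin receptor substrate (0.77 after saline and 0.70 after psilocybin), and Ptpn1, a phosphatase of leptin and insulin signalling (0.48 and 0.44). Pcsk5, another convertase, was lower after saline, at −0.37. Bdnf, which acts downstream of MC4R in feeding control, was higher at 3 h in the hypothalamus after saline (0.40, edgeR adjusted p = 0.0179), in the hypothalamus after psilocybin (0.51, edgeR adjusted p = 0.000286) and in the PFC after psilocybin (0.37, edgeR adjusted p = 0.007). In the PFC after saline it was at 0.26 and not called (edgeR adjusted p = 0.0758). Among the 8 genes that missed the test, Npy in the PFC after psilocybin was at 0.40 (edgeR adjusted p = 0.238) and Pcsk1 at 0.22 (edgeR adjusted p = 0.354). Each was called by 1 other fit, Npy at 0.39 when only the libraries of the comparison were fitted (edgeR adjusted p = 0.0447) and Pcsk1 at 0.28 with voom quality weights (limma adjusted p = 0.0281).

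The hypothalamus libraries of 1 group differed far more in the peptide genes than in the receptors and convertases. The SD of log2 CPM around the group means was 0.79 for Agrp, 0.69 for Pomc, 0.64 for Npy and 0.58 for Cartpt, above those of 95.5%, 92.0%, 89.2% and 85.1% of all genes tested. It was 0.30 for Mc3r and for Mc4r, where the median of all genes was 0.28, 0.24 for Pcsk1 and 0.16 for Pcsk2. The highest of all 31 libraries exceeded the lowest 18.3-fold for Pomc, 12.7-fold for Agrp, 6.87-fold for Npy and 6.77-fold for Cartpt, and 1.75-fold for Pcsk2. Without psilocybin replicate 5 at 4 weeks these folds were 7.52 for Pomc, 7.01 for Agrp and 4.13 for Npy, and unaltered for Cartpt and Pcsk2. Without it the SDs of Agrp, Pomc, Npy and Cartpt were 0.66, 0.59, 0.57 and 0.48 and the median of all genes 0.20. Those of Mc3r and Mc4r were then 0.30 and 0.31, above 63.9% and 64.8% of all genes tested.

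Agrp, Npy and Pomc rose and fell together. Over the 31 libraries, with group means removed, Agrp and Npy had Pearson's r = 0.937 and Spearman's rho = 0.930 (each permutation p = 1e-05, the smallest that 100000 permutations give, and 9.33e-05 adjusted over 28 pairs). The value was 0.914 without the 2 libraries farthest from the median of Agrp, 0.950 and 0.927 within extraction pools A (n = 15) and B (n = 16), and 0.917 without psilocybin replicate 5 at 4 weeks. AgRP neurons make both peptides. Pomc, made by other neurons of the nucleus, followed both, with r = 0.822 with Agrp and r = 0.822 with Npy (rho 0.790 and 0.776, each permutation p adjusted 9.33e-05). Without the 2 outermost libraries of Pomc these values were 0.745 and 0.734, and without psilocybin replicate 5 at 4 weeks 0.741 and 0.757. Within pools A and B they were 0.793 and 0.842 for Agrp and 0.819 and 0.857 for Npy.

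Of the 28 pairs of the 8 genes, 9 had a permutation p adjusted under 0.05, and 7 without psilocybin replicate 5 at 4 weeks. Pcsk1 had r = −0.242 with Pomc, −0.211 with Agrp and −0.196 with Npy, none of them called, and 0.323, 0.415 and 0.318 without that library. With the mean of each group within each extraction pool removed, they were −0.202, −0.091 and −0.00014 over all 31 libraries. Without that library they were then 0.532, 0.746 and 0.680, so these relations of Pcsk1 depend on the library and on the pool. Pomc and Cartpt had r = 0.613 (rho 0.490, permutation p adjusted 0.00483 and 0.0348), which fell to 0.385 without 2 libraries and 0.426 without psilocybin replicate 5 at 4 weeks. Cartpt with Agrp and with Npy had r = 0.576 and 0.579 (permutation p adjusted 0.0289 and 0.0158), but the rho of these pairs was not called (0.414 and 0.433), and r was 0.396 and 0.375 without 2 libraries and 0.360 and 0.408 without psilocybin replicate 5 at 4 weeks. These relations of Cartpt rest in part on the libraries named above. Pcsk2 ran against Agrp and Npy, with r = −0.485 and −0.493 (rho −0.558 and −0.545; permutation p of r adjusted 0.0461 and 0.0409). With Pomc its r was −0.455 (permutation p adjusted 0.0774) and its rho −0.586 (permutation p adjusted 0.00945). Within pools A and B these were −0.760 and −0.527 for Agrp and −0.809 and −0.534 for Npy. Pomc and Mc3r had r = 0.509 (permutation p adjusted 0.0421), with rho 0.353 not called.

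**Figure D4:**
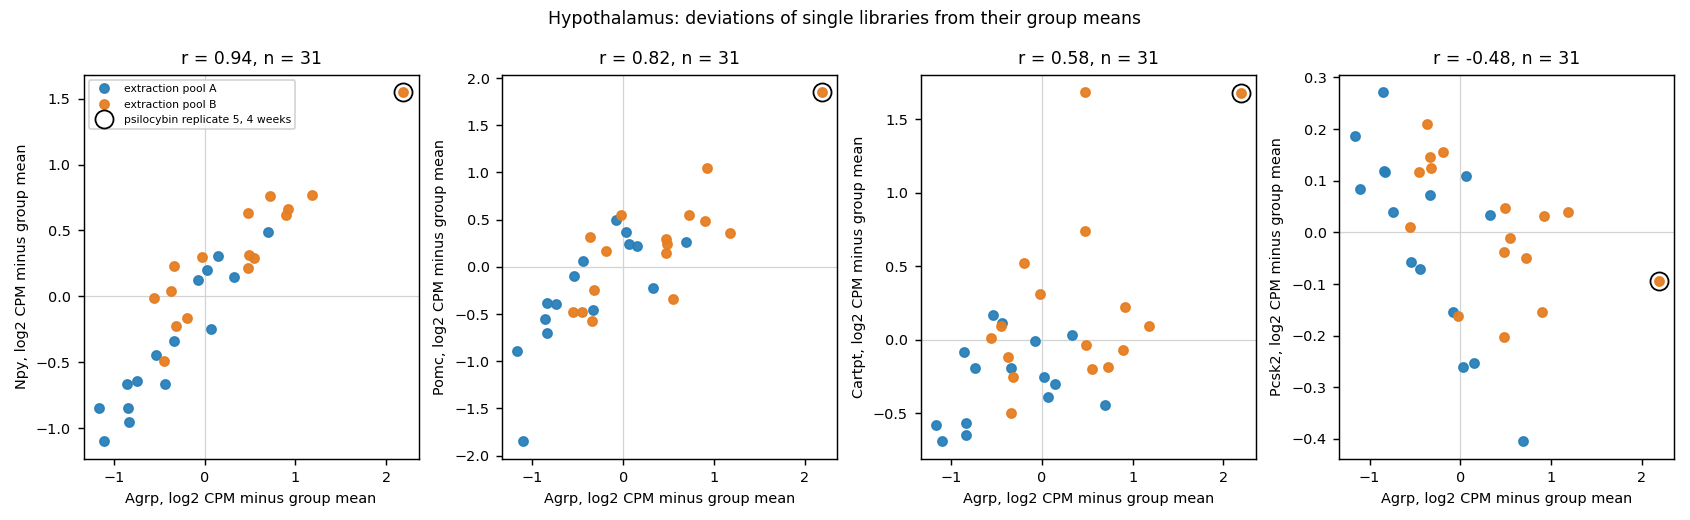
Deviation from the group mean in log2 CPM of Agrp (horizontal axes) against Npy, Pomc, Cartpt and Pcsk2 (vertical axes) in the 31 hypothalamus libraries, pool A in blue and pool B in orange, with psilocybin replicate 5 at 4 weeks ringed. Npy follows Agrp closely (r = 0.937), Pomc follows it (0.822), Cartpt less so (0.576) and Pcsk2 runs against it (−0.485).

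Markers of some other cells and nuclei moved with these genes, and those of others did not pass the test. Of 120 pairs of a gene and a marker list in the hypothalamus 23 were called (permutation p adjusted over 120). Npy had r = 0.815 with the 7 tanycyte and median eminence markers and Agrp had r = 0.693. Within pools A and B these were 0.768 and 0.625 for Npy, and 0.776 and 0.388 for Agrp, whose relation was weaker in pool B. Agrp had r = 0.782 with the paraventricular and supraoptic list (0.680 without psilocybin replicate 5 at 4 weeks) and 0.731 with the suprachiasmatic list, and Npy had r = 0.800 with the microglia and blood list. That replicate 5 was the highest hypothalamus library for Npy (50.2 CPM) and for the summed microglia and blood list (957 CPM). Pomc had r = 0.662 with the tanycyte list. The ventromedial list, of the nucleus next to the arcuate, had r = 0.087 with Pomc, −0.297 with Agrp and −0.292 with Npy. The lateral hypothalamus list had −0.090, −0.213 and −0.266 and the mammillary list 0.125, 0.074 and −0.086 with the same genes, and none of these was called. Pcsk2 went with thalamus markers (r = 0.744) and cortical layer markers (0.678), while Mc4r went against thalamus markers (−0.611). Pcsk1 had r = 0.544 with the pituitary list, a value that includes psilocybin replicate 5 at 4 weeks, the lowest hypothalamus library for Pcsk1 (38.3 CPM). The thalamus list summed to 226 to 737 CPM over the hypothalamus libraries and the tanycyte list to 48.5 to 147 CPM. Neither the tanycyte nor the suprachiasmatic list is a measure of tissue limits in itself, since the first summed to 105 to 184 CPM in the PFC and the second to 47.0 to 124 CPM there against 21.5 to 48.3 CPM in the hypothalamus. The part of dissection in these relations was not tested.

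**Figure D5:**
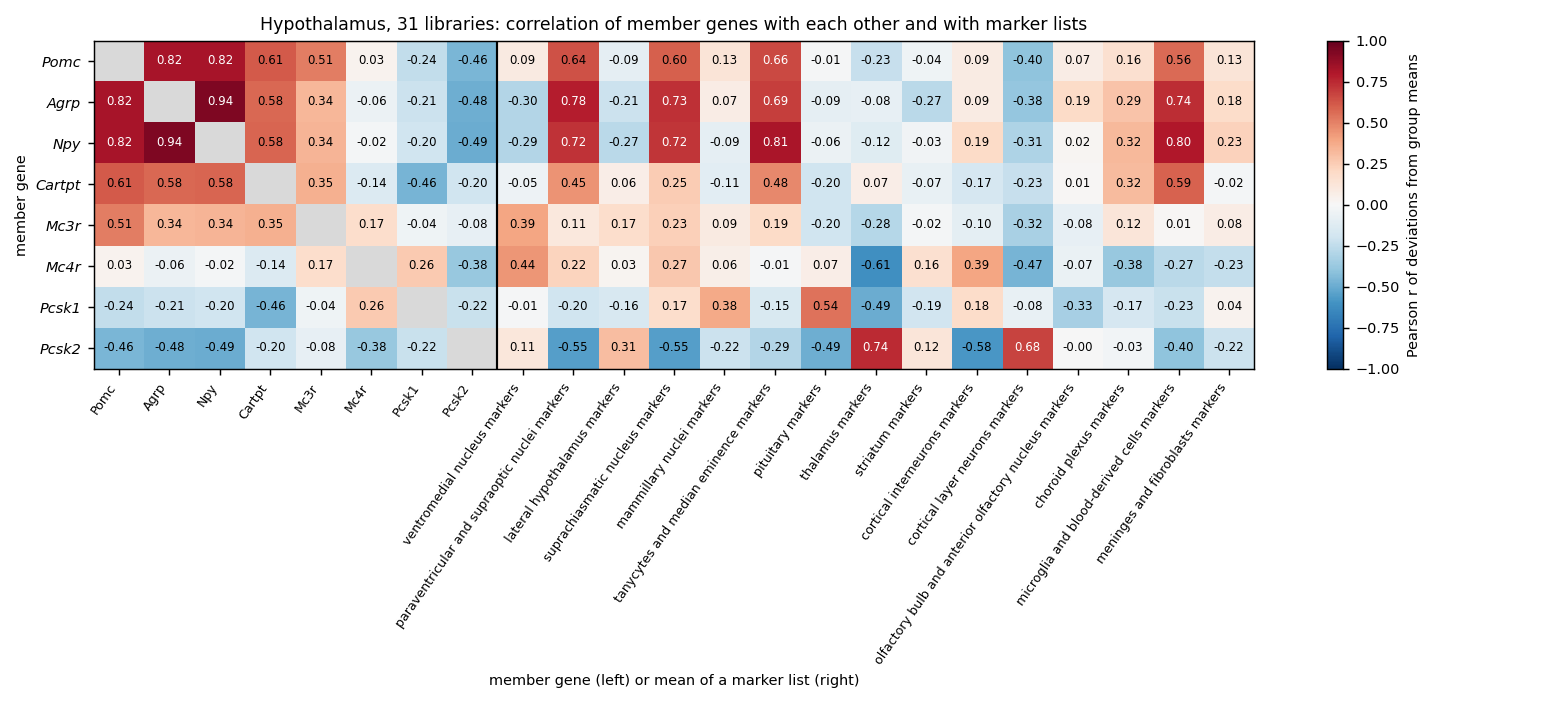
Pearson's r over the 31 hypothalamus libraries, with group means removed, of the 8 genes (rows) with each other and with 15 marker lists (columns); red is positive and blue negative. Pomc, Agrp and Npy form a block of r from 0.822 to 0.937, and Pcsk2 is opposite in sign to it and positive with the thalamus list (0.744).

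Extraction pool and transcript length also went with the peptide genes. With group means removed, each hypothalamus library's trend of level on transcript length had r = −0.62 with Pomc, −0.70 with Agrp, −0.63 with Npy and −0.66 with Cartpt. Without psilocybin replicate 5 at 4 weeks these were −0.38, −0.62, −0.56 and −0.37. In a test added after the data were seen, pool B exceeded pool A in the hypothalamus for Npy by 0.73 ± 0.15 (edgeR adjusted p = 0.00108), Agrp by 0.87 ± 0.21 (edgeR adjusted p = 0.00466) and Cartpt by 0.65 ± 0.19 (edgeR adjusted p = 0.0142), in a comparison where 17.4% of all genes were called. Pomc was at 0.55 ± 0.20 (edgeR adjusted p = 0.0508). In the PFC, where 24.9% were called, Pcsk1 was lower in pool D than in pool C by −0.53 (edgeR adjusted p = 4.00e-05) and Pcsk2 by −0.21 (edgeR adjusted p = 0.00625). The pools hold different cages, so pool and cage cannot be told apart. With the pool difference removed Agrp and Npy had r = 0.919, and with each library's trend of level on transcript length removed r = 0.896, while Pomc had 0.690 with Agrp and 0.708 with Npy.

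In the PFC 17 of 75 pairs of a gene and a marker list were called. Pcsk1 had r = 0.819 with cortical layer markers (0.510 and 0.862 within pools C and D), and Pcsk2 had r = −0.724 with choroid plexus markers, −0.712 with interneuron markers and −0.712 with thalamus markers. With the pool difference removed 4 pairs were called, and with the cage mean removed 1.

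The genes most like each of 5 members across the hypothalamus libraries were listed by r of deviations from the group means over 31 libraries. Nearest to Pomc were Crabp1 (0.905), Cited1 (0.854), Nkx2-4 (0.846), Castor1 (0.844) and Msrb2 (0.830), with Agrp and Npy in places 6 and 7 of all genes tested. Without psilocybin replicate 5 at 4 weeks they were Tbx3, Crabp1, Asb4, Cand2 and Bsx, with Npy in place 15 and Agrp in place 23. Tbx3 and Bsx are transcription factors of arcuate neurons. Over all 31 libraries Npy was the nearest gene to Agrp and Agrp the nearest to Npy, and without that library Npy was in place 3 for Agrp and Agrp in place 2 for Npy, with Col23a1 first for both. Cited1, Nxn, Ucp2 and Sparc came next for Agrp, and Surf4, Itgb5, S100a6 and Nxn for Npy. Without the same library the tanycyte markers Col23a1 and Gpr50 were among the 5 nearest to both, and Cited1 and Vip were also among those of Agrp. The nearest to Cartpt were Nectin2, D130020L05Rik, Hmgn2, Ddt and Selenos, of which Nectin2 alone remained without that library. For Mc4r they were Vax1, Trpc7, Kcnk2, Btbd19 and Hap1, with Vax1 and Btbd19 among the 5 without it.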

How the data were processed

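Whole hypothalamus and PFC RNA was sequenced as TruSeq stranded mRNA libraries, 52-bp paired-end reads. The authors used bcl2fastq 2.20.0, STAR 2.7.2b on GRCm38 and featureCounts 1.6.2 with GENCODE vM25, and deposited raw read counts per gene, not normalised. Every count column was matched to a sample by its label, 2 libraries under 1000000 reads were left out and 62 were used. The study dropped 1 more library, for its wound healing and immune genes, without naming it, so that library is among the 62. No 2 libraries of a group agreed within sampling noise (lowest chi-square per degree of freedom 3.85 over 210 pairs). Gene symbols were lacking for 260 IDs.

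Counts were tested with edgeR 4.0.16 (R 4.3.3; TMM, filterByExpr with minimum count 10 by group, robust quasi-likelihood fit) in a model of group and extraction pool centred within region, as a stand-in for the limma model of the study. An adjusted p under 0.05 over 18971 genes was called. In simulated counts for the hypothalamus at 3 h (18817 genes) 51 of 100 genes changed 1.5-fold and 68 of 100 changed 2-fold were called, with 8 false calls among 18617. The changed genes were drawn at random from all genes tested. These shares therefore do not give the power for the peptide genes, which spread more between libraries than most genes. CPM and RPKM were computed from the deposited counts and exon lengths; spread used log2 CPM with prior count 2. Correlations used 100000 permutations within groups, two-sided.

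Depth was 8061033 to 70361839 counted reads, so Mc3r, Mc4r and Agrp rest on few reads in the PFC. Intervals cover the spread between libraries only; libraries of 1 region came from separate mice, and each mouse gave a library of both regions. The replicate number in the labels is the cage number, which pairs mice of the groups. Same-cage libraries of different groups correlated at a mean r of 0.0723 in the hypothalamus and 0.0806 in the PFC (45 pairs each), and at −0.0234 and −0.0413 after extraction pool was removed. Time contrasts are confounded with age.

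The 8 genes and all lists were chosen with earlier results of these data known. Named were the 8 genes, list genes called in a comparison or with the smallest p for psilocybin in the hypothalamus, the 2 list genes of largest log2 fold change in each direction between regions, and for 5 members the 5 genes of highest r. Not every gene this rule admits is printed. Alternatives were RLE size factors, no low-count filter, no pool term, cage block, within-pool fits, the groups of a comparison alone, all 64 libraries, leaving out each library, voom with quality weights (limma 3.58.1) and DESeq2 1.42.0. Added after the data were seen were the removal of the length trend, the pool test and the values of list genes without the hypothalamus library that stood apart and without PFC saline replicate 3 at 4 weeks.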

Additional observations from a re-analysis of the deposited data

Results flagged for a closer look

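Within each group of 7 or 8 libraries the highest and lowest level in log2 CPM was compared with its neighbour (Dixon's test at 95%). Of 64 groups of a gene 9 held a library that stood apart, and chance gives about 1 in 20. The levels below are in CPM.
Cartpt stood apart in replicate 5 of the hypothalamus after psilocybin at 3 h (186.4 CPM, others 37.0 to 65.2), after saline at 3 h (86.3 CPM, others 44.9 to 51.2) and after psilocybin at 4 weeks (176.4 CPM, others 36.9 to 59.7). In saline at 4 weeks replicate 5 was not the highest, at 42.4 CPM. Cartpt also stood apart in the PFC in saline replicate 6 at 4 weeks (10.7 CPM, others 2.25 to 3.88), and replicate 6 was the highest of its group in psilocybin at 4 weeks (7.42 CPM) and saline at 3 h (3.81 CPM).
Psilocybin replicate 5 at 4 weeks was also the outermost hypothalamus library for Pomc (147.3 CPM, others of its group 21.9 to 48.8) and Pcsk1 (38.3 CPM, others 70.1 to 82.5). In the same library Avp was at 1121 CPM against 56.9 to 299 CPM elsewhere and Sim1, another paraventricular marker, at 3.31 CPM against 10.2 to 19.4 CPM.
In the PFC psilocybin replicate 7 at 3 h stood apart for Npy (151.6 CPM, others 76.0 to 103.5) and Pcsk1 (33.8 CPM, others 55.3 to 83.2), and psilocybin replicate 6 at 3 h for Mc4r (0.703 CPM, others 1.49 to 2.42).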

How the results depend on the processing

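Of 529 single-gene values recomputed under the alternatives, 485 kept direction and side of the threshold, 32 turned sign, 4 gained and 8 lost a call; of 137 counts 127 stayed within 1.5 times and 10 did not. With voom quality weights 1 of the 8 genes was called between times in the hypothalamus after saline (7.25% of all genes), 1 after psilocybin (3.29%) and 2 in the PFC after psilocybin (19.1%). With only the libraries of the comparison 2 were called in the PFC after psilocybin (7.85%), and within extraction pools C and D 0 and 0. For psilocybin against saline in the PFC at 3 h the main fit called 0.0105% of all genes. Voom quality weights called 6.49% there, and the fit of only the libraries of that comparison 0%.

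Turned signs, as log2 differences, were as follows. For psilocybin in the hypothalamus at 3 h, pool A gave −0.081 for Agrp, −0.27 for Npy and −0.0016 for Cartpt, pool B 0.075 for Pomc and voom −0.077 for Npy. At 4 weeks voom gave −0.014 for Pomc, −0.39 for Agrp, −0.26 for Npy and −0.018 for Mc3r. Leaving out psilocybin replicate 5 gave −0.11 for Npy, −0.057 for Mc3r and 0.00086 for Mc4r, no filter −0.022 for Mc3r, pool B −0.22 for Mc3r and pool A 0.17 for Mc4r. In the PFC at 3 h pool D gave −0.15 for Cartpt and −0.091 for Pcsk1, voom −0.20 for Cartpt and 0.0020 for Pcsk2, pool C 0.0030 for Pcsk2, and leaving out that hypothalamus library −0.0041 for Cartpt. At 4 weeks pool D gave 0.34 for Mc4r, voom 0.00088 for Mc4r, all 64 libraries 0.011 and pool C 0.026 for Pcsk2. Between times, voom gave 0.0068 for Pomc and 0.75 for Agrp in the hypothalamus after psilocybin, leaving out replicate 5 gave 0.40 for Agrp, and pool D gave 0.13 for Mc3r in the PFC after saline, where leaving out saline replicate 3 at 4 weeks gave 0.89 for Gal.

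With the cage number as a replicate block in place of the extraction pool, Cartpt alone was called in the PFC after saline between times (1 of 8), Pomc in the hypothalamus at 3 h turned to 0.044 and Agrp between times after psilocybin to 0.13; the block changed no other call of the 8 genes. The regions were fitted with the animal as a block instead. In the PFC marker pairs, 17 called became 1 with the cage mean removed, 4 with the pool and 11 with the length trend removed.

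Leaving out 1 library each, 8 of 8 genes stayed called between regions and 1 of 8 between times in the PFC after psilocybin, while the PFC after saline gave 0 to 1. Signs turned for Pomc (−0.15 to 0.12), Npy (−0.092 to 0.12) and Cartpt (−0.0086 to 0.42) in the hypothalamus at 3 h. At 4 weeks they turned for Npy (−0.11 to 0.30), Mc3r (−0.058 to 0.11) and Mc4r (−0.10 to 0.053). In the PFC at 3 h they turned for Cartpt (−0.13 to 0.14) and Pcsk2 (−0.083 to 0.029), and at 4 weeks for Mc4r (−0.21 to 0.13) and Pcsk2 (−0.057 to 0.0036). Agrp between times after psilocybin ranged from −0.26 to 0.40. The cause of these changes was not tested.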

Other observations

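Other called genes of the lists between times were in the PFC. After saline the mammillary marker Foxb1, the prolactin receptor gene Prlr (−2.15) and the pituitary marker Tbx19 were lower at 3 h, and the microglial gene Tmem119 was higher (0.53). Without saline replicate 3 at 4 weeks Foxb1 and Tbx19 were not called (edgeR adjusted p = 0.149 and 0.127). Prlr at −1.46 and Tmem119 at 0.54 stayed called without it (edgeR adjusted p = 0.0193 and 0.0045). After psilocybin Tmem119 was again higher at 3 h (0.55), and Glp1r (−1.51), Prdm12 (−3.47), Lhx1, Lhx5 and the olfactory bulb markers Cdhr1 (−1.84) and Doc2g (−1.91) were lower. Psilocybin replicate 7 at 4 weeks had the highest summed olfactory list of all PFC libraries, 145.5 CPM against a region median of 8.17 CPM. It was also the highest for the mammillary list, which holds Lhx5, at 1.34 CPM (region median 0.154 CPM). The part of that library in these differences was not tested. Other single libraries also had a high summed level of other tissues' markers. Among them, saline replicate 3 at 4 weeks was highest for choroid plexus in the hypothalamus (1249 CPM, region median 50.1). Saline replicate 1 at 4 weeks was highest for pituitary in the hypothalamus (376 CPM, region median 4.14) and in the PFC (41.8 CPM, region median 1.33). For striatum in the PFC it was saline replicate 6 at 4 weeks (2217 CPM, region median 327).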
